A study of Mus musculus with 17 samples.

Results

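The genes described here are 29 genes of mitochondrial and peroxisomal fatty acid oxidation, measured as RNA in mouse macrophages that were sorted from the liver or from adipose tissue. Their symbols were looked up in the gene counts the authors deposited: 29 of 29 were found, each in 1 entry of a table of 40548 genes, and 29 of the 15285 genes that passed a filter on low counts are theirs. They fall into 6 roles: the carnitine shuttle (4 genes), acyl-CoA dehydrogenases (7), electron transfer from those dehydrogenases (3), the later mitochondrial steps (6), auxiliary enzymes for unsaturated chains (4) and peroxisomal oxidation (5).

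The 17 libraries came from C57BL/6 mice of the Cx3Cr1-GFP/WT line, whose Cx3cr1 gene, for a chemokine receptor, has a green fluorescent reporter in 1 copy. Every group shares this genotype. STD KC (n = 3) are TIM4-positive, F4/80-high liver macrophages, the sort profile of resident Kupffer cells, from mice on standard chow, and HFD KC (n = 5) are the same sort from mice on a high fat, high sucrose diet. Cx3cr1pos HFD (n = 4) are liver macrophages positive for the reporter. ATM HFD (n = 5) are macrophages of adipose tissue, gated on F4/80 with CD64. Both came from mice on the high fat, high sucrose diet. Both diets lasted 16 weeks, and library names are those in the sample titles. Values of single libraries are given in a fixed order: hfd1, hfd2, hf1, hf2 and hf3 for HFD KC and ATM HFD, hf1, hf2, hf3 and hfd2 for Cx3cr1pos HFD, and std1, std2 and std3 for STD KC. The labels do not say that libraries of a group came from separate animals, so p-values measure only the spread between these samples, and in sorted bulk RNA fewer cells of a type and less RNA per cell cannot be told apart. Within HFD KC the hf libraries carry the sort label CD68 and the hfd libraries the label frac_neg, so name and label cannot be told apart there. The STD KC and ATM HFD libraries carry the label frac_neg and the Cx3cr1pos HFD libraries the label frac_pos.

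Fatty acids are burnt in repeated rounds that each shorten the chain and release acetyl-CoA. Mitochondria take long chains in as carnitine esters, oxidise them with acyl-CoA dehydrogenases chosen by chain length, and pass the electrons to the respiratory chain. Peroxisomes start on very long and branched chains with oxidases, a bifunctional enzyme and a thiolase of their own, and hand shortened chains to mitochondria. In macrophages this pathway is best known for its place in lipid handling and in alternative activation, and many of its genes are targets of the nuclear receptors called PPARs.

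Promoter windows from the RefSeq promoter table (GRCm38.p6, 250 bases before to 50 after the transcript start) were found for 23 of the 29 genes. The stretch upstream of Hadhb is shown because Hadha and Hadhb, the subunits of the mitochondrial trifunctional protein both of which rose in adipose macrophages, are transcribed away from each other from starts 273 bp apart and their windows share 228 bp. It lies at chr5:30155003-30155252 on the plus strand and ends at the base before the start of Hadhb; capitals mark the bases that also lie in the window of Hadha.
Hadhb: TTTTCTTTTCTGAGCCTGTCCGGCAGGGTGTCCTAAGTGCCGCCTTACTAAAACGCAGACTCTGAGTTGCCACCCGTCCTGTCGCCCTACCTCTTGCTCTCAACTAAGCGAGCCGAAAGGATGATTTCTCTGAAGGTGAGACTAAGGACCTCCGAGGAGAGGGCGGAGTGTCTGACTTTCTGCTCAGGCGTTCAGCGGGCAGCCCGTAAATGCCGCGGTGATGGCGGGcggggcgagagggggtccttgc
The stretch upstream of Acadm, the acyl-CoA dehydrogenase with the largest rise below, lies at chr3:153944644-153944893 on the minus strand; capitals mark the nuclear receptor half-site AGGTCA, here on the opposite strand.
Acadm: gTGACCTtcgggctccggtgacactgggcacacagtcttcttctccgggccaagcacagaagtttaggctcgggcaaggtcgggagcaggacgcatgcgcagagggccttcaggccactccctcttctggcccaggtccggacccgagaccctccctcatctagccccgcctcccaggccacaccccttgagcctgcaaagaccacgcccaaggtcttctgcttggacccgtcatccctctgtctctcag
The half-site was found, on either strand, in the windows of 4 of the 23 genes, a motif that 16.3% of all 32851 windows in the table hold. Its other matches are shown with 10 bases on each side, for Acadvl at chr11:70015500-70015525 on the minus strand, Cpt1a at chr19:3323197-3323222 on the plus strand and Echs1 at chr7:140116489-140116514 on the minus strand.
Acadvl: ggatcaccctAGGTCAggtagaatac
Cpt1a: gtttccttacTGACCTcctccccgca
Echs1: cagcccgctcAGGTCAcgggtccacc
The paired site AGGTCANAGGTCA, in which PPARs bind with their partner receptor, was in none of the 23 windows (0.0396% of all windows), and with 1 free base in each copy (AGGNCANAGGNCA) also in none (0.381%). The site of the mitochondrial regulator NRF1, GCGCANGCGC, was in those of Abcd3, Acad10, Etfb and Etfdh (4.60% of all windows), and TNAAGGTCA, the site of estrogen-related receptors, which contains the half-site, was in none (1.28%). All motifs were searched on both strands. Acadm, Acadvl and Cpt1a rose and Echs1 fell in at least 1 adipose comparison below.

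Total counts per library ran from 25.6 M to 38.2 M. Levels are normalised CPM, counts per 1000000 of the library size scaled with TMM factors, and 3 counts correspond to 0.0752 to 0.115 CPM. Among the sort genes, Timd4 and Cx3cr1 followed the labels. Timd4, which encodes TIM4, stood at 5.76 ± 1.45 CPM (SD) in ATM HFD, 35.7 ± 7.75 in Cx3cr1pos HFD, 1133 ± 469 in HFD KC and 1413 ± 167 in STD KC. The HFD KC libraries ran from 402 to 1656 CPM, with hfd2 lowest. Without hfd2, Cpt1a in Cx3cr1pos HFD against HFD KC and Echs1 and Eci2 in ATM HFD against HFD KC lost the calls given below. The summed level of 5 Kupffer cell markers, Timd4 included, was 147 to 177 CPM in ATM HFD, 5974 to 14174 in Cx3cr1pos HFD, 32602 to 47168 in HFD KC and 41449 to 44268 in STD KC. That of 10 markers of sinusoidal endothelium was 112 to 168, 1280 to 2159, 1887 to 6245 and 6003 to 7976 CPM in the same order. The summed level of 14 hepatocyte markers was 2.36 to 4.34 CPM in ATM HFD, 71.3 to 132 in Cx3cr1pos HFD, 138 to 643 in HFD KC and 169 to 368 in STD KC. That of 8 fibroblast and adipose stroma markers was 129 to 333 CPM in ATM HFD against 23.4 to 55.4 in HFD KC, and 7 of 8 rose. Of 4 adipocyte markers tested, 3 rose in ATM HFD against HFD KC and Pck1, which hepatocytes also express, fell. Of all genes, 23.8% rose and 25.2% fell in ATM HFD against HFD KC. All 8 adipocyte markers together stood at 6.41 to 19.4 CPM in ATM HFD against 6.98 to 21.1 in HFD KC, and the 7 without Pck1, a sum chosen after the values were seen, at 5.62 to 17.6 against 0.298 to 1.99. Plin1 and Lep had 0 counts in HFD KC and stood at 0.0814 and 2.62 CPM in ATM HFD. The mitochondrial genome's own transcripts took 0.598 to 1.36% of the counts in ATM HFD and 0.295 to 0.645% in the liver libraries. ATM HFD hf3 had the highest share, and was the lowest adipose library for genes that rose (Acadm, Etfa, Hadha, Hadhb) and for genes that fell (Cpt2, Acad11, Hsd17b4, Ehhadh, Abcd3). The part of these differences in the results below was not tested, except where a measurement is given.

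All 29 genes were detected in all 4 groups. Per kilobase of the longest coding transcript, Etfb, a subunit of the electron transfer flavoprotein, had the highest mean level in each group. Hsd17b4, the main bifunctional enzyme of peroxisomes, came next in the liver groups, at 152 ± 8.601, 178 ± 22.2 and 170 ± 25.4 CPM per kb in STD KC, HFD KC and Cx3cr1pos HFD. It was within 1 SD of Etfb in the latter pair. In ATM HFD it stood at 71.0 ± 10.6 CPM per kb, behind Acaa2 (125 ± 7.002) and Etfa (89.5 ± 6.53) and within 1 SD of Hadha (72.1 ± 4.72). With all annotated exon bases as the length, Hsd17b4 ranked 4 and Hadha 9 in ATM HFD, so their closeness depends on the length used. Acad10 was lowest per kilobase in each group, at 1.25 ± 0.0269, 1.14 ± 0.227, 0.823 ± 0.286 and 1.07 ± 0.0992 CPM per kb in the groups in the order above. Of the exon bases annotated for Etfb, 58.2% lie under other genes of the same strand, so its rank is uncertain.

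**Figure D1:**
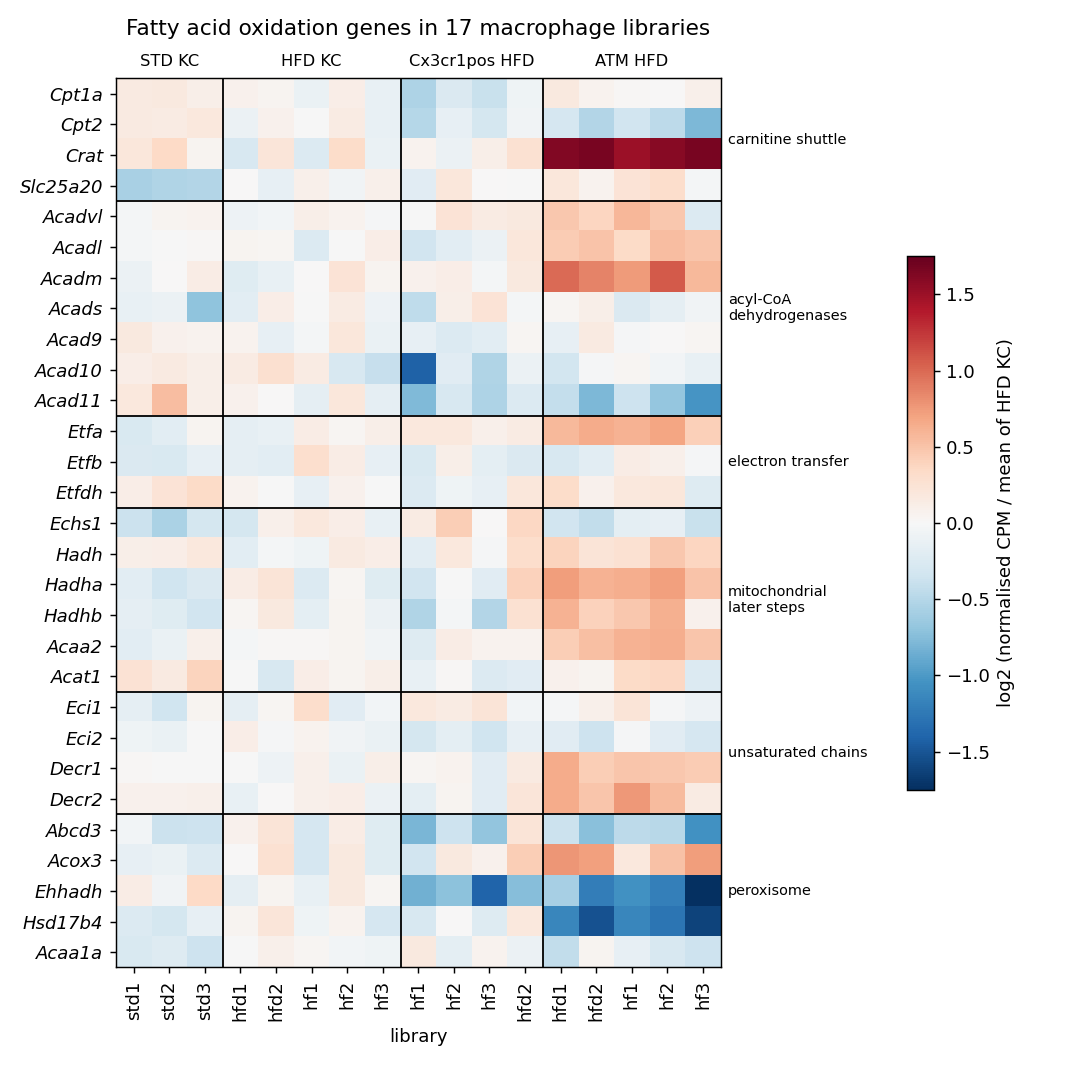
Level of each of the 29 genes (rows, grouped by role) in each of the 17 libraries (columns, grouped by sort), as log2 of normalised CPM over the mean of the 5 HFD KC libraries. The 5 ATM HFD columns differ from the liver columns in both directions, red for Crat and Acadm and blue for Hsd17b4 and Ehhadh, while the 3 liver groups are pale for most genes.

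Most calls came from the adipose macrophages. Against HFD KC, 12 of the 29 genes rose in ATM HFD, 7 fell and 10 did not pass the test (edgeR quasi-likelihood F-test, Benjamini-Hochberg adjusted p under 0.05 over all genes tested). Of all 15285 genes, 49% passed, 23.8% upward and 25.2% downward, so the share of members that fell, 7 of 29, was close to that of all genes and the share that rose was above it. Against Cx3cr1pos HFD, 11 rose, 2 fell and 16 did not pass, where 39.7% of all genes passed, 18.9% upward and 20.8% downward. The median log2 fold change of the members was 0.12 and 0.22 in the 2 comparisons, beside 0.000917 and -0.03 over all genes tested. Both comparisons use the same 5 ATM HFD libraries and are not independent of each other; 10 genes rose in both (Crat, Acadl, Acadm, Etfa, Hadha, Hadhb, Acaa2, Decr1, Decr2 and Acox3) and Echs1 and Hsd17b4 fell in both. The 5 ATM HFD libraries lay above all 5 HFD KC libraries for 9 members and below them for 5 (16.4% and 17.6% of all genes), and above and below all 4 Cx3cr1pos HFD libraries for 8 and 2 (15.5% and 16.2%).

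The other comparisons called fewer genes, among the members and among all genes. For the diet, HFD KC against STD KC, 1 of 29 passed, Slc25a20, upward. That was close to the share of all genes, of which 3.4% passed (2.27% upward, 1.13% downward). Cx3cr1pos HFD against HFD KC gave 2 falls, Cpt1a and Ehhadh, and 27 genes did not pass, where 13.3% of all genes passed (5.85% upward, 7.48% downward); 3 members, Acad11, Eci2 and Ehhadh, lay below all HFD KC libraries and 0 above them (6.84% and 5.89% of all genes). Over the 4 comparisons, which share libraries, 8 members passed in none, 7 in 1 and 14 in 2.

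Among the 4 genes of the carnitine shuttle, Crat had the largest rise of the 29. Crat (ENSMUSG00000026853), carnitine acetyltransferase, which moves short acyl groups between CoA and carnitine, read 116, 119.9, 107, 114 and 119.8 CPM in ATM HFD. It read 39.5, 35.2, 40.5 and 45.6 CPM in Cx3cr1pos HFD, 31.2, 43.7, 31.9, 47.1 and 34.9 in HFD KC, and 43.2, 48.0 and 39.2 in STD KC. Every adipose library stood far above the highest liver library, and the 3 liver groups overlapped. The level was 3.05-fold that of HFD KC (log2 fold change 1.61 ± 0.12 SE, adjusted p = 8.3e-09) and 2.87-fold that of Cx3cr1pos HFD (1.52 ± 0.13 SE, adjusted p = 8.0e-08), and both calls held under every alternative.

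Cpt1a (ENSMUSG00000024900), the outer-membrane transferase that commits long chains to mitochondrial oxidation, was highest of the shuttle genes by CPM. It read 166, 202, 185 and 230.3 CPM in Cx3cr1pos HFD, 255, 249, 222, 262 and 219.96 in HFD KC, and 273, 252, 245, 242 and 258 in ATM HFD. STD KC libraries read 268, 272 and 261 CPM. The Cx3cr1pos HFD libraries were the lowest, with hfd2 inside the range of HFD KC and all of them under every ATM HFD library. Cpt1a fell in Cx3cr1pos HFD against HFD KC (log2 fold change -0.30 ± 0.09 SE, adjusted p = 0.041) and rose in ATM HFD against Cx3cr1pos HFD (0.37 ± 0.09 SE, adjusted p = 0.0044). The fall is a weak call: it was lost under 12 of 19 alternatives, with adjusted p values up to 0.17. Among them were leaving out HFD KC hfd1, hfd2 or hf2 or Cx3cr1pos HFD hf1, hf2 or hf3. With the library name as a replicate block it was -0.30 with an adjusted p of 0.060. ATM HFD and HFD KC gave 0.07 ± 0.09 SE (adjusted p = 0.54).

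Slc25a20 (ENSMUSG00000032602), the carrier that brings acylcarnitines across the inner membrane, was the 1 member that passed for the diet. It read 40.1, 41.0 and 41.6 CPM in STD KC and 59.3, 53.7, 63.2, 56.7 and 63.3 in HFD KC. All HFD KC libraries lay above all STD KC libraries, as for Acaa1a, and the reverse held for Acat1, Cpt2 and Etfdh, 2 members upward and 3 downward (7.45% and 6.58% of all genes). The rise was 1.45-fold (log2 fold change 0.54 ± 0.10 SE, adjusted p = 0.0083). With the frac_neg libraries of HFD KC alone it was 0.47 with an adjusted p of 0.084, and without STD KC std2 or std3 the adjusted p was 0.061 or 0.0504. Cx3cr1pos HFD (51.5, 67.9, 59.5 and 59.1 CPM) and ATM HFD (68.1, 62.0, 70.0, 73.5 and 57.8) overlapped HFD KC; under total counts ATM HFD passed against both (0.25, adjusted p = 0.020 and 0.25, adjusted p = 0.030).

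Cpt2 (ENSMUSG00000028607), which frees the acyl-CoA on the matrix side, went the other way in adipose macrophages. It read 39.7, 34.1, 38.4, 35.5 and 28.2 CPM in ATM HFD and 45.4, 51.4, 48.2, 53.7 and 44.5 in HFD KC, with no overlap. STD KC read 54.1, 53.9 and 55.1 CPM. The log2 fold change was -0.47 ± 0.10 SE, adjusted p = 0.0012. Against Cx3cr1pos HFD (34.3, 43.9, 39.4 and 46.5 CPM) the groups overlapped (-0.22 ± 0.11 SE, adjusted p = 0.12) and the difference passed only without Cx3cr1pos HFD hf1 (-0.30, adjusted p = 0.046). Crat and Cpt2, both carnitine acyltransferases, thus moved in opposite directions between the same libraries.

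**Figure D2:**
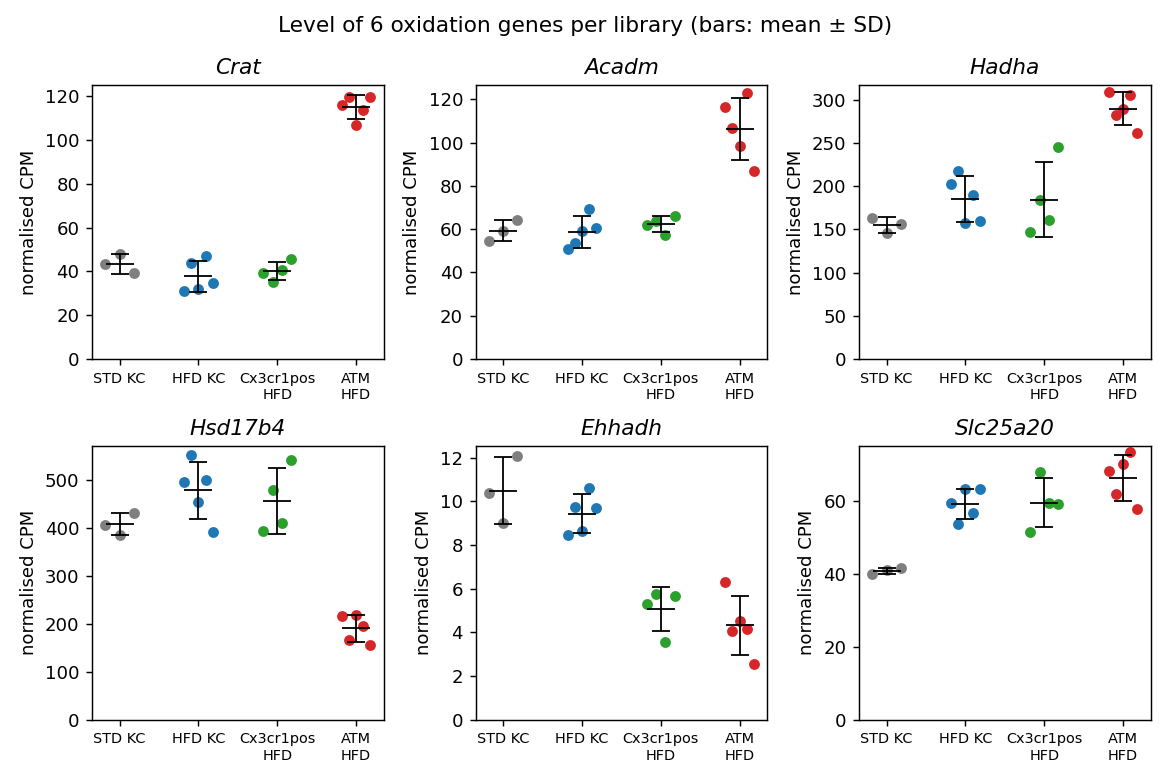
Normalised CPM per library (points) of 6 genes in the 4 groups, with group mean ± SD (bars). Crat, Acadm and Hadha are highest in all 5 ATM HFD libraries, Hsd17b4 is lowest there, Ehhadh is low in both Cx3cr1pos HFD and ATM HFD, and Slc25a20 is lowest in the 3 STD KC libraries.

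Of the 7 acyl-CoA dehydrogenases, which take the first electrons from the chain, Acadm, Acadl and Acadvl rose in ATM HFD against HFD KC and Acad11 fell. Acadm (ENSMUSG00000062908), for medium chains, read 117, 107, 98.3, 123 and 86.7 CPM in ATM HFD. It read 61.9, 63.8, 57.5 and 66.1 CPM in Cx3cr1pos HFD and 50.8, 53.6, 59.0, 69.5 and 60.6 in HFD KC. All adipose libraries lay above all liver libraries, STD KC included (54.7, 59.1 and 64.3 CPM). The rise was 1.81-fold over HFD KC (log2 fold change 0.86 ± 0.10 SE, adjusted p = 3.5e-06) and 1.71-fold over Cx3cr1pos HFD (0.77 ± 0.11 SE, adjusted p = 4.0e-05).

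Acadl (ENSMUSG00000026003), for long chains, read 107, 112, 99.7, 115 and 111 CPM in ATM HFD. HFD KC read 81.9, 81.3, 67.1, 79.0 and 86.0 CPM and Cx3cr1pos HFD 62.5, 69.3, 73.5 and 90.4, and STD KC 76.9, 79.0 and 80.2. The adipose libraries again lay above the rest, by 0.46 ± 0.09 SE on the log2 scale over HFD KC (adjusted p = 0.00065) and 0.56 ± 0.10 over Cx3cr1pos HFD (adjusted p = 0.00033). Acadvl, for very long chains, ran from 66.9 to 118 CPM in ATM HFD and from 73.7 to 84.2 in HFD KC; ATM HFD hf3 was below every HFD KC library and the other 4 were above. Its rise over HFD KC (0.36 ± 0.12 SE, adjusted p = 0.017) was lost when only the hf libraries, only the CD68 or only the frac_neg libraries of HFD KC were used (adjusted p = 0.29, 0.053 and 0.065). Over Cx3cr1pos HFD it did not pass (0.22 ± 0.12 SE, adjusted p = 0.17), except without ATM HFD hf3 (0.34, adjusted p = 0.0023) and under total counts (0.31, adjusted p = 0.024). Of its annotated exon bases 42.9% lie under Dvl2 on the other strand, whose reads cannot be told apart without strand.

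Acad11 (ENSMUSG00000090150), a relative that also carries a kinase-like domain, read 13.7, 10.5, 14.1, 11.4 and 8.93 CPM in ATM HFD and 19.1, 18.2, 16.4, 20.9 and 16.4 in HFD KC. No ATM HFD library reached the lowest HFD KC library, and the log2 fold change was -0.63 ± 0.15 SE, adjusted p = 0.0016. In Cx3cr1pos HFD it read 10.7, 14.98, 12.5 and 15.4 CPM, also below all HFD KC libraries, a difference that did not pass (-0.44 ± 0.15 SE, adjusted p = 0.071) except with DESeq2 (adjusted p = 0.036) and total counts (0.039). STD KC read 20.6, 26.5 and 19.5 CPM. Acads, for short chains, Acad9, which also helps to assemble respiratory complex I, and Acad10 passed in no comparison. In ATM HFD, Cx3cr1pos HFD, HFD KC and STD KC, Acads stood at 30.6 ± 2.99, 31.5 ± 6.02, 31.9 ± 3.04 and 26.1 ± 5.73 CPM (SD). Acad9 stood at 21.2 ± 1.55, 19.3 ± 1.61, 21.1 ± 2.10 and 22.7 ± 0.971 CPM, and Acad10 at 4.10 ± 0.380, 3.15 ± 1.09, 4.38 ± 0.868 and 4.78 ± 0.103 CPM, in the same order.

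Electrons from these dehydrogenases pass to the electron transfer flavoprotein, a dimer of the products of Etfa and Etfb, and from it to ubiquinone through the product of Etfdh. Etfa (ENSMUSG00000032314) read 122, 130.4, 126, 134 and 111 CPM in ATM HFD, 73.9, 75.8, 90.5, 84.7 and 88.8 in HFD KC, and 94.3, 94.2, 88.4 and 91.1 in Cx3cr1pos HFD. All ATM HFD libraries were above all liver libraries (STD KC 68.6, 72.7 and 85.4 CPM), by 0.59 ± 0.08 SE, adjusted p = 2.1e-05 on the log2 scale over HFD KC and 0.44 ± 0.09 SE, adjusted p = 0.0010 over Cx3cr1pos HFD. Etfb, the partner subunit, stood at 179 ± 21.3 CPM in ATM HFD, 168 ± 21.0 in Cx3cr1pos HFD, 185 ± 28.1 in HFD KC and 159 ± 7.62 in STD KC (SD), and passed in no comparison; its log2 fold change from HFD KC to ATM HFD was -0.04 ± 0.11 SE. The ratio of Etfa to Etfb counts, which no scaling enters, was 0.607 to 0.803 in ATM HFD, 0.473 to 0.612 in Cx3cr1pos HFD, 0.400 to 0.531 in HFD KC and 0.441 to 0.510 in STD KC. ATM HFD overlapped Cx3cr1pos HFD and lay above both Kupffer cell groups. Etfdh passed in no comparison, at 72.0 ± 9.78 CPM in ATM HFD, 63.8 ± 8.49 in Cx3cr1pos HFD, 66.3 ± 3.97 in HFD KC and 77.9 ± 6.14 in STD KC. Between the first pair it passed without ATM HFD hf3 or Cx3cr1pos HFD hfd2 and under total counts (adjusted p = 0.0498, 0.032 and 0.026).

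The later mitochondrial steps hydrate, oxidise and cleave the chain, and for long chains the trifunctional protein does all of them. Hadha (ENSMUSG00000025745), its alpha subunit, read 309, 283, 289, 305 and 262 CPM in ATM HFD and 202, 217, 157, 189.8 and 160.1 in HFD KC. Cx3cr1pos HFD read 147, 184, 161 and 245 CPM, the last above every Kupffer cell library, and STD KC 164, 146 and 156. All adipose libraries exceeded all liver libraries, 1.56-fold over HFD KC (log2 fold change 0.64 ± 0.13 SE, adjusted p = 0.00046) and 1.57-fold over Cx3cr1pos HFD (0.65 ± 0.14 SE, adjusted p = 0.0011).

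Hadhb, the beta subunit, whose promoter stretch is shared with Hadha as printed above, rose as well, by 0.45 ± 0.15 SE, adjusted p = 0.017 on the log2 scale over HFD KC and 0.61 ± 0.16 SE, adjusted p = 0.0051 over Cx3cr1pos HFD. Its libraries overlapped, at 26.9 to 39.3 CPM in ATM HFD, 22.5 to 28.6 in HFD KC and 17.6 to 30.7 in Cx3cr1pos HFD; ATM HFD hf3 was the lowest adipose library. The rise over HFD KC was lost with only the hf libraries or only the frac_neg libraries of HFD KC (adjusted p = 0.067 and 0.21). The ratio of Hadha to Hadhb counts ran from 7.78 to 9.73 in ATM HFD, 7.37 to 8.99 in Cx3cr1pos HFD, 6.78 to 7.75 in HFD KC and 6.61 to 7.75 in STD KC. The adipose libraries lay above all Kupffer cell libraries by a small margin and overlapped Cx3cr1pos HFD. Of the sequence of Hadhb transcripts, 19.7% of 50-base words, the read length, also occur in other genes, Gm13910 among them, so its counts are uncertain.

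Acaa2 (ENSMUSG00000036880), a mitochondrial thiolase, read 177, 189, 199, 202 and 184 CPM in ATM HFD. HFD KC read 128, 133, 132, 135 and 126 CPM and Cx3cr1pos HFD 112, 143, 137 and 137. STD KC read 116, 121 and 139.7 CPM. The adipose libraries lay above all others, by 0.54 ± 0.08 SE, adjusted p = 3.2e-05 on the log2 scale over HFD KC and 0.53 ± 0.09 SE, adjusted p = 0.00013 over Cx3cr1pos HFD. Hadh, the hydroxyacyl-CoA dehydrogenase for shorter chains, rose over HFD KC (58.1 to 68.6 against 43.5 to 55.0 CPM; 0.35 ± 0.10 SE, adjusted p = 0.0064), a call lost with only the hf libraries (adjusted p = 0.10). Over Cx3cr1pos HFD it missed the threshold (0.26 ± 0.10 SE, adjusted p = 0.051) and passed it under 11 of 17 alternatives.

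Echs1 (ENSMUSG00000025465), the short-chain hydratase, was the exception among these steps, with its lowest levels in standard-diet Kupffer cells and adipose macrophages. It read 102, 95.3, 115, 116 and 98.6 CPM in ATM HFD and 142, 173, 129.7 and 166 in Cx3cr1pos HFD. HFD KC read 104, 136, 147, 139 and 118 CPM and STD KC 98.8, 88.1 and 104. All adipose libraries lay below all Cx3cr1pos HFD libraries (log2 fold change -0.54 ± 0.12 SE, adjusted p = 0.0014), a call lost only with the hf libraries alone (-0.40, adjusted p = 0.071). The fall from HFD KC to ATM HFD (-0.29 ± 0.11 SE, adjusted p = 0.037) was lost under 13 of 20 alternatives, among them leaving out HFD KC hfd2, hf1 or hf2 or ATM HFD hfd1, hfd2, hf2 or hf3. The diet difference did not pass (0.41 ± 0.13 SE, adjusted p = 0.090) except with DESeq2 and without HFD KC hfd1 (adjusted p = 0.032 and 0.0495). Acat1, the thiolase of acetoacetyl-CoA, passed in no comparison. Its mean was 127 ± 20.9 CPM in ATM HFD, 106 ± 8.999 in Cx3cr1pos HFD, 116 ± 12.3 in HFD KC and 140.2 ± 11.6 in STD KC. Between the first pair it passed under 5 of 17 alternatives, among them leaving out ATM HFD hf3 or Cx3cr1pos HFD hf2 (adjusted p = 0.016 and 0.037).

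Unsaturated chains need isomerases and reductases that move or remove double bonds. Both dienoyl-CoA reductases rose in adipose macrophages. Decr1 (ENSMUSG00000028223), the mitochondrial one, read 38.4, 33.0, 34.3, 34.1 and 33.4 CPM in ATM HFD, 24.4, 23.1, 26.2, 22.6 and 26.5 in HFD KC and 25.3, 25.6, 21.5 and 27.5 in Cx3cr1pos HFD. STD KC read 24.9, 24.5 and 24.5 CPM. All adipose libraries were above the liver libraries, by 0.49 ± 0.08 SE, adjusted p = 0.00011 on the log2 scale over HFD KC and 0.47 ± 0.09 SE, adjusted p = 0.00050 over Cx3cr1pos HFD. Decr2, the peroxisomal one, rose by 0.53 ± 0.11 SE, adjusted p = 0.00069 over HFD KC and 0.55 ± 0.12 SE, adjusted p = 0.0013 over Cx3cr1pos HFD, at 50.9 to 78.3 CPM in ATM HFD, 42.0 to 50.1 in HFD KC and 40.3 to 53.4 in Cx3cr1pos HFD. Eci1, an isomerase of mitochondria, passed in no comparison (19.0 ± 1.67 CPM in ATM HFD, 20.2 ± 1.66 in Cx3cr1pos HFD, 18.5 ± 2.72 in HFD KC and 16.7 ± 2.31 in STD KC). The fall of Eci2, its relative, from 57.4 to 67.6 CPM in HFD KC to 48.2 to 61.4 in ATM HFD (-0.21 ± 0.08 SE, adjusted p = 0.040) was lost under 16 of 20 alternatives, among them leaving out any 1 library other than HFD KC hf3 and ATM HFD hf1.

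The peroxisomal genes split. Hsd17b4 (ENSMUSG00000024507), the bifunctional enzyme for branched and very long chains, had the largest fall of the 29. It read 217, 167, 217, 196 and 155 CPM in ATM HFD and 495, 551, 453, 499.9 and 392 in HFD KC. Cx3cr1pos HFD read 393, 479, 411 and 542 CPM, and STD KC 405, 385 and 431. All adipose libraries lay below all liver libraries, and the liver groups overlapped. The level was 2.51-fold lower than in HFD KC (log2 fold change -1.33 ± 0.12 SE, adjusted p = 1.4e-07) and 2.39-fold lower than in Cx3cr1pos HFD (-1.26 ± 0.13 SE, adjusted p = 7.9e-07), with ranges of -1.46 to -1.19 and -1.32 to -1.11 over the alternatives.

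Ehhadh (ENSMUSG00000022853), the other bifunctional enzyme, a classic PPAR alpha target in hepatocytes, was low in every library. It read 6.30, 4.07, 4.51, 4.14 and 2.56 CPM in ATM HFD, 5.28, 5.76, 3.58 and 5.65 in Cx3cr1pos HFD, 8.47, 9.75, 8.66, 10.6 and 9.70 in HFD KC and 10.4, 9.0 and 12.1 in STD KC. Both sorts without TIM4 selection lay below all Kupffer cell libraries and overlapped each other. The fall from HFD KC was 1.86-fold in Cx3cr1pos HFD (log2 fold change -0.90 ± 0.21 SE, adjusted p = 0.0091) and 2.19-fold in ATM HFD (-1.13 ± 0.20 SE, adjusted p = 0.00016), while ATM HFD and Cx3cr1pos HFD gave -0.23 ± 0.21 SE (adjusted p = 0.40). The fall in Cx3cr1pos HFD was lost with the hf libraries alone (-1.01, adjusted p = 0.060) and with the frac_neg libraries of HFD KC alone (-0.85, adjusted p = 0.076). Hepatocyte markers moved with it: 8 of 14 fell in Cx3cr1pos HFD and 14 of 14 in ATM HFD against HFD KC. Of all genes, 7.48% and 25.2% fell in these comparisons. Within HFD KC, hfd1 had the highest summed level of those markers, 643 CPM, and the lowest Ehhadh, 8.47 CPM, close to 8.66 in hf1. The part of hepatocyte RNA in the level of Ehhadh was not tested.

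Abcd3 (ENSMUSG00000028127), a transporter that brings acyl-CoA into peroxisomes, read 62.9, 49.3, 59.5, 58.5 and 39.4 CPM in ATM HFD and 86.1, 95.7, 66.9, 89.5 and 70.8 in HFD KC. No ATM HFD library reached the lowest HFD KC library, and the log2 fold change was -0.60 ± 0.18 SE, adjusted p = 0.011; the call was lost with the hf libraries alone and with the CD68 libraries of HFD KC alone (adjusted p = 0.068 and 0.10). STD KC read 79.5, 63.2 and 63.8 CPM. In Cx3cr1pos HFD it read 46.8, 63.6, 50.7 and 96.0 CPM, with hfd2 highest, and did not pass against HFD KC (-0.35 ± 0.19 SE, adjusted p = 0.26) except without that library (-0.63, adjusted p = 0.020). Acox3, an oxidase of branched chains, rose instead, by 0.60 ± 0.15 SE, adjusted p = 0.0026 over HFD KC and 0.49 ± 0.16 SE, adjusted p = 0.019 over Cx3cr1pos HFD, with overlapping libraries (71.9 to 108 CPM in ATM HFD, 51.5 to 76.0 in HFD KC and 50.0 to 85.5 in Cx3cr1pos HFD). The first call was lost with the frac_neg libraries of HFD KC alone and the second without Cx3cr1pos HFD hf1 or with the hf libraries alone (adjusted p = 0.074, 0.073 and 0.067). Acaa1a, the peroxisomal thiolase, passed in no comparison (36.4 ± 4.89 CPM in ATM HFD, 42.4 ± 4.52 in Cx3cr1pos HFD, 42.6 ± 1.84 in HFD KC and 34.9 ± 1.74 in STD KC). Without ATM HFD hfd2 it passed against HFD KC (-0.26, adjusted p = 0.022) and against Cx3cr1pos HFD (-0.25, adjusted p = 0.044). Of its sequence, 17.1% of 50-base words occur in other genes, first of all Acaa1b.

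**Figure D3:**
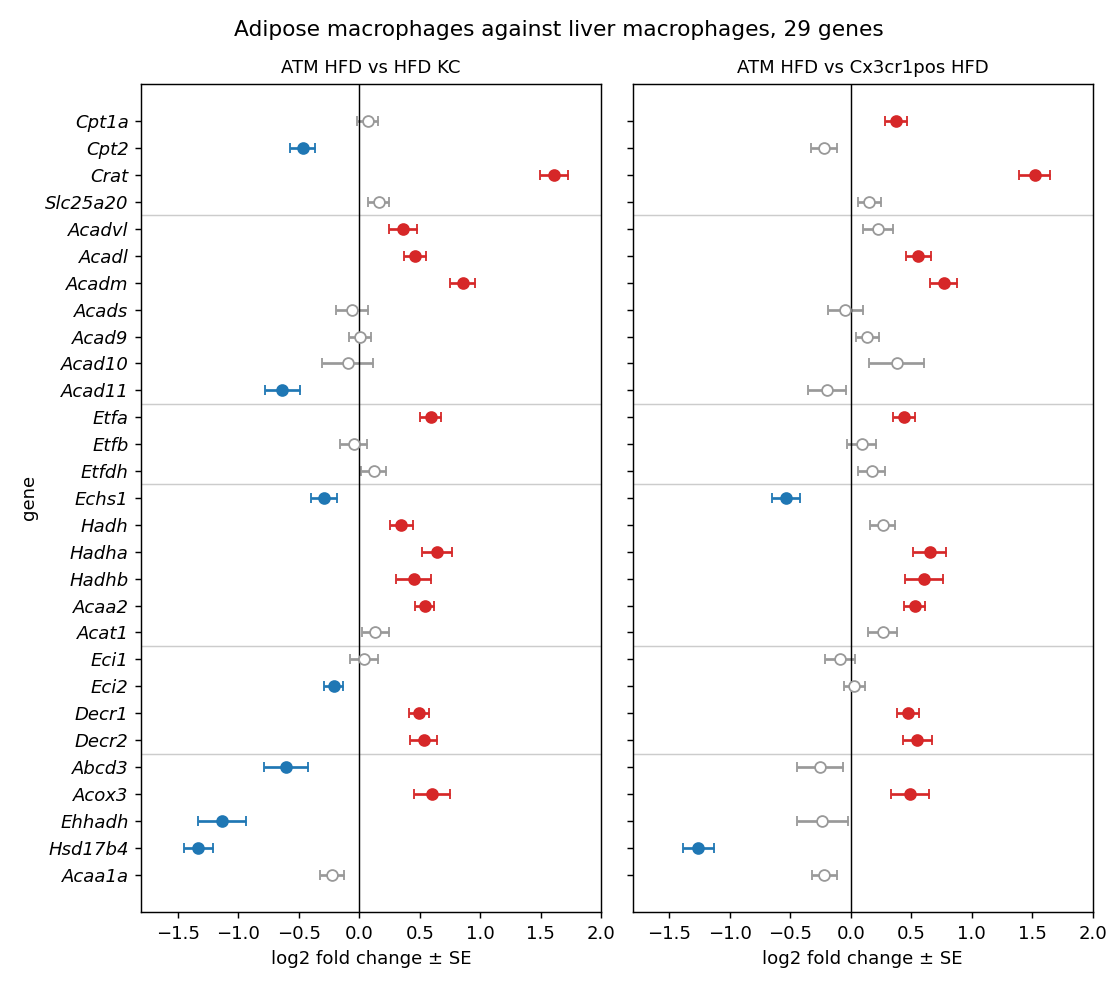
Log2 fold change ± SE of the 29 genes in ATM HFD against HFD KC (left) and against Cx3cr1pos HFD (right), in order of role with grey lines between roles; filled red points rose and filled blue points fell at an adjusted p under 0.05, open points did not pass. Crat has the largest rise, 1.61 and 1.52, and Hsd17b4 the largest fall, -1.33 and -1.26; the 2 panels share the ATM HFD libraries.

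Counts of a mitochondrial and a peroxisomal enzyme can be compared within each library, where no scaling between libraries enters. The pairs join genes whose fold changes differed in the tests above, so the ratios restate those differences and are no separate support. Decr2 and Acox3, both peroxisomal, rose in ATM HFD, so each ratio speaks for its own genes and not for a pathway. The ratio of Hadha to Hsd17b4 counts was 1.42, 1.69, 1.33, 1.56 and 1.69 in ATM HFD. It was 0.409, 0.394, 0.347, 0.380 and 0.409 in HFD KC, 0.374, 0.384, 0.392 and 0.453 in Cx3cr1pos HFD, and 0.403, 0.379 and 0.362 in STD KC. The liver groups overlapped and the adipose libraries stood apart. The ratio of Crat to Cpt1a counts likewise ran from 0.426 to 0.476 in ATM HFD against 0.122 to 0.237 in the liver libraries. That of Acadm to Ehhadh ran from 18.5 to 33.9 in ATM HFD and from 11.1 to 16.1 in Cx3cr1pos HFD. It was 5.49 to 6.82 in HFD KC and 5.28 to 6.57 in STD KC, so there Cx3cr1pos HFD stood apart from the Kupffer cell groups.

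**Figure D4:**
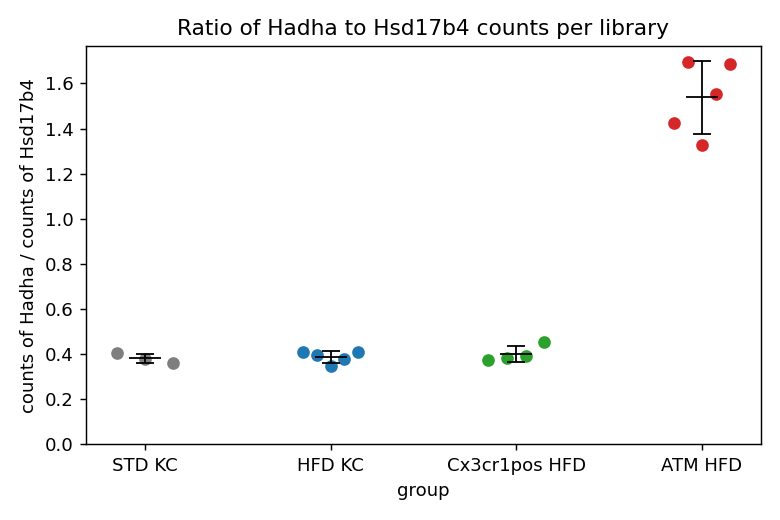
Ratio of Hadha counts to Hsd17b4 counts in each library (points), by group, with mean ± SD (bars). The 12 liver libraries lie between 0.347 and 0.453 and the 5 ATM HFD libraries between 1.33 and 1.69.

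The genes around these pathways were counted from lists of their own, to be read beside the 23.8% of all genes that rose and 25.2% that fell in ATM HFD against HFD KC. Against Cx3cr1pos HFD these shares were 18.9% and 20.8%, and with the diet 2.27% and 1.13%. Of 10 PPAR target genes that are not oxidation enzymes, 7 rose in ATM HFD against HFD KC and 3 did not pass, with a median log2 fold change of 1.71. They include Plin2, which coats lipid droplets (4203 to 5879 CPM in ATM HFD against 920.4 to 1509 in HFD KC; 2.17 ± 0.14 SE, adjusted p = 1.9e-09), Angptl4, a secreted inhibitor of lipoprotein lipase (2.68 ± 0.22 SE, adjusted p = 2.5e-08), Lpl, that lipase (1.48 ± 0.16 SE, adjusted p = 7.4e-07), and Fabp5, a fatty acid carrier (3.03 ± 0.39 SE, adjusted p = 7.0e-06). In the same list 8 rose against Cx3cr1pos HFD. For the diet 3 rose, Angptl4 (2.10 ± 0.26 SE, adjusted p = 0.00036), Plin2 (0.92 ± 0.16 SE, adjusted p = 0.0045) and the fatty acid receptor Cd36 (1.55 ± 0.31 SE, adjusted p = 0.011), and 1 fell, Txnip, a thioredoxin-binding protein (-0.61 ± 0.16 SE, adjusted p = 0.049). Leaving out single libraries gave 1 to 5 rises: 1 without STD KC std2, where Plin2 and Cd36 missed the threshold (adjusted p = 0.053 and 0.11), 2 without std3, where Cd36 missed it (0.092), and 5 without HFD KC hf1. The fall of Txnip was lost under 12 of 16 alternatives, among them RLE factors and total counts (adjusted p = 0.055 and 0.0504) and leaving out STD KC std1 or std2 or HFD KC hfd2, hf1 or hf3.

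Of 22 other peroxisomal lipid genes, 3 rose and 11 fell in ATM HFD against HFD KC, with a median log2 fold change of -0.28. Leaving out single libraries gave 3 to 4 rises and 8 to 10 falls. Ech1, an isomerase of dienoyl chains, rose from 167 ± 10.5 to 320.01 ± 25.6 CPM (0.93 ± 0.08 SE, adjusted p = 8.4e-08), and Nudt7, a hydrolase of CoA, from 2.52 ± 0.686 to 12.0 ± 1.68 CPM (2.25 ± 0.21 SE, adjusted p = 1.2e-07). Ephx2, soluble epoxide hydrolase, fell from 8.77 ± 2.99 to 1.19 ± 0.528 CPM (-2.88 ± 0.32 SE, adjusted p = 1.4e-06), and Acaa1b, the close relative of Acaa1a, from 2.62 ± 0.652 to 0.0901 ± 0.0356 CPM, near the level of 3 counts. Against Cx3cr1pos HFD 2 rose and 5 fell. The diet lowered Nudt7 (-1.32 ± 0.23 SE, adjusted p = 0.0036) and Hacl1, a lyase of branched chains (-0.73 ± 0.18 SE, adjusted p = 0.037). The call of Nudt7 held under 16 of 16 alternatives, and that of Hacl1 was lost under 12, among them leaving out any 1 library other than HFD KC hf2. Of 16 peroxisome biogenesis genes 1 rose and 2 fell in ATM HFD against HFD KC, and 2 rose and 1 fell under total counts. Leaving out single libraries gave 0 to 2 rises and 1 to 3 falls, with both counts kept only without ATM HFD hfd2 or hf2 or HFD KC hfd2.

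Of 23 other mitochondrial genes of fatty acid, ketone body and branched-chain breakdown that were tested, 2 rose and 7 fell in ATM HFD against HFD KC, with a median log2 fold change of -0.15, shares of rises below and of falls near those of all genes. Bdh1, a ketone body dehydrogenase, fell from 1.16 ± 0.497 CPM in HFD KC to 0.198 ± 0.0827 in ATM HFD (-2.53 ± 0.40 SE, adjusted p = 6.1e-05). Against Cx3cr1pos HFD 3 rose and 5 fell (4 and 4 under total counts or RLE factors). There, 2 fell without ATM HFD hfd2 or Cx3cr1pos HFD hf2 or hfd2, 3 fell without ATM HFD hfd1 or hf2, and 2 rose without Cx3cr1pos HFD hf1 or hf3. Of 17 genes of the tricarboxylic acid cycle, which burns the acetyl-CoA, 1 rose and 7 fell against HFD KC (3 and 6 under total counts), among them Suclg2 (-0.97 ± 0.12 SE, adjusted p = 5.1e-06) and Dlst (-0.57 ± 0.09 SE, adjusted p = 5.7e-05); 3 fell without ATM HFD hfd2, 4 without ATM HFD hfd1 and 2 with the hf libraries alone, and 2 rose without ATM HFD hfd2 or HFD KC hfd1 or hfd2 and 3 without ATM HFD hf3. Against Cx3cr1pos HFD 1 rose and 5 fell, and under total counts 4 rose and 2 fell. Leaving out single libraries gave 0 to 2 rises and 2 to 4 falls: 4 falls without ATM HFD hf1 or Cx3cr1pos HFD hf1, 3 without ATM HFD hf3 or Cx3cr1pos HFD hf3, and 2 without any other library.

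Among 16 tested regulators, 2 rose and 5 fell in ATM HFD against HFD KC, a share of falls near that of all genes. Without ATM HFD hfd2 or hf3 or HFD KC hfd1 or hfd2, 1 rose. Rxra, the usual partner of the PPARs, fell from 223 ± 49.8 to 26.8 ± 6.93 CPM (-3.05 ± 0.19 SE, adjusted p = 1.6e-09), and Ppargc1b, a coactivator of mitochondrial genes, from 22.6 ± 2.58 to 9.34 ± 2.34 CPM (-1.27 ± 0.19 SE, adjusted p = 2.7e-05). Ppara, the receptor that drives oxidation genes in hepatocytes, was near the limit of detection, with 83 counts over 5 HFD KC libraries and 1 count over 5 ATM HFD libraries; hepatocyte markers moved the same way. Pparg, the receptor of adipose lipid storage and of macrophage lipid handling, stood at 73.6 ± 18.1 CPM in ATM HFD, 88.9 ± 16.9 in Cx3cr1pos HFD, 37.3 ± 19.2 in HFD KC and 15.4 ± 4.34 in STD KC (SD). It rose with the diet (1.28 ± 0.32 SE, adjusted p = 0.038) and in both other macrophage sorts over HFD KC (1.25 ± 0.28 SE, adjusted p = 0.0064 for Cx3cr1pos HFD and 0.98 ± 0.27 SE, adjusted p = 0.0057 for ATM HFD). The diet call was lost without STD KC std1, std2 or std3 (adjusted p = 0.052, 0.22 and 0.19), with only the groups compared (0.099) and with the CD68 libraries of HFD KC alone (0.079). The other calls were each lost with the frac_neg libraries of HFD KC alone (adjusted p = 0.15 and 0.20).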

How the data were processed

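RNA of 17 sorted macrophage libraries had been amplified with a SMARTer kit and read as single ends of 50 bases, per the labels' protocols. STAR 2.0.4b and featureCounts 1.4.5 of the Subread package made the gene counts the authors deposited, per the submitters' processing notes; build, annotation and strand setting are not given in the sources used here. The table has 40824 entries; 276 entries with a repeated identifier were left out, which left 40548 genes. All 4 groups (1 coefficient each) were fitted together on 15285 genes kept by filterByExpr, with TMM scaling and the quasi-likelihood F-test of edgeR 4.0.16 (R 4.3.3); the common biological coefficient of variation was 0.297. P-values were adjusted by Benjamini-Hochberg over all genes tested, with a threshold of 0.05. Normalised CPM are deposited counts per 1000000 of TMM-scaled library size. Floors of 3 counts cover counting error only.

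The members and the gene lists were chosen with earlier results of these data known. Members past the threshold are named, the 6 of smallest adjusted p in each direction and comparison library by library, the rest by group mean and SD or range; from other lists up to 4 genes per comparison by smallest adjusted p, some of which are not reported here. Pparg in the adipose comparison was named outside that rule after its values were seen. Overlaps and shared 50-base words are from GENCODE M21 (GRCm38) and promoters from RefSeq (GRCm38.p6). Alternatives were DESeq2 1.42.0, RLE factors, total counts, no filter, only the groups compared, a term for the name prefix, a replicate block by library name, the hf libraries alone, HFD KC libraries of 1 sort label, and each library left out in turn. Same-named libraries of HFD KC and Cx3cr1pos HFD deviated together (4 of 4 correlations of deviations from the group mean over 0.1, from 0.166 to 0.301). The highest correlation between libraries of different names was 0.160, close to the lowest of these. Any pairing is read from the sample titles and these values, not from a stated shared animal. The main fit is therefore unpaired and the replicate block is an alternative. The script was tested on simulated counts of 15285 genes. Of changes placed there, 14 to 20% of 1.5-fold and 48 to 54% of 2-fold ones were recovered over the 4 comparisons. The changed genes were drawn at random from all 15285, so these rates are not those of the 29 members. A gene that did not pass may still differ.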

Additional observations from a re-analysis of the deposited data

Results flagged for a closer look

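Decr1 in ATM HFD hfd1, at 38.4 CPM, stood apart from the other 4 libraries of its group, at 33.0 to 34.3 CPM; the gap to its nearest neighbour was 0.767 of the group's range. The check was made on 87 sets of values, 29 genes in 3 groups of 4 or 5 libraries, and flagged this 1, where chance flags about 5%.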

How the results depend on the processing

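No member's log2 fold change past the threshold turned its sign under the alternatives run. Of the 19 members called in ATM HFD against HFD KC, 12 were called under every alternative, and of the 13 called against Cx3cr1pos HFD, 11. Leaving out single libraries gave 17 to 19 and 13 to 16 members and 6864 to 7315 and 5246 to 6090 genes in all. The counts of the liver comparisons moved more. For the diet, where 519 genes and 1 member were called, DESeq2 called 1156 genes and 2 members, the fit of only the groups compared 231 genes, the frac_neg libraries alone 0 members, and leaving out single libraries gave 125 to 545 genes (125 without STD KC std2, 161 without std3, 291 without std1) and 0 to 2 members. For Cx3cr1pos HFD against HFD KC, where 2037 genes and 2 members were called, the hf libraries alone gave 1005 genes and 0 members, DESeq2 and total counts 4 members each, no filter, only the groups compared and only the CD68 libraries 1 member each, only the frac_neg libraries 0, and the replicate block 1. Leaving out single libraries gave 1327 to 2114 genes (1327 without Cx3cr1pos HFD hf3) and 1 to 3 members. Total counts moved the split of all genes in ATM HFD from 3642 higher and 3854 lower to 4249 and 3389 against HFD KC, and from 2893 and 3180 to 3503 and 2575 against Cx3cr1pos HFD. The cause of these differences was not tested.

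Between the ATM HFD group and the liver groups, same-named libraries deviated together less clearly. Of the correlations of deviations, 2 of 5 with HFD KC and 2 of 4 with Cx3cr1pos HFD were over 0.1. In the same order, 3 of 5 and 2 of 4 libraries correlated best with their own name. These values cannot show whether such libraries share an animal. With the replicate block, 12 members rose and 6 fell against HFD KC, and 13 rose and 2 fell against Cx3cr1pos HFD. Of 22 other peroxisomal genes 5 rose and 8 fell against HFD KC. The shares of all genes under the block are not given here, so these counts have no measure beside them. No paired analysis was possible for the diet because STD KC and HFD KC share no library names. Between HFD KC and Cx3cr1pos HFD the block changed the call of Cpt1a and of no other member. At 25.6 M to 38.2 M counts a library, depth limits none of the 29 genes to the floor, but Ehhadh and Acad10 are low.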

Other observations

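Genes around the pathway also differed between the liver sorts, where the 29 oxidation genes gave 2 calls. In Cx3cr1pos HFD against HFD KC, 2 of 10 PPAR target genes rose, Fabp5 (1.81 ± 0.39 SE, adjusted p = 0.0051) and Plin2 (0.62 ± 0.14 SE, adjusted p = 0.0075), and 2 fell, Txnip (-0.62 ± 0.15 SE, adjusted p = 0.012) and Pdk4, a kinase that shuts off pyruvate oxidation (-1.95 ± 0.46 SE, adjusted p = 0.0092), where 5.85% of all genes rose and 7.48% fell. Txnip missed the threshold without Cx3cr1pos HFD hf3 (adjusted p = 0.052), and 3 fell without Cx3cr1pos HFD hfd2. With the hf libraries alone Plin2, Txnip and Pdk4 missed it, with the CD68 libraries of HFD KC alone Txnip and Pdk4 did, and with its frac_neg libraries alone Plin2 and Fabp5 did. Among 16 regulators, Pparg, as given above, and Ppard, the ubiquitous PPAR (0.95 ± 0.24 SE, adjusted p = 0.014), rose and Ppargc1b fell (-1.18 ± 0.20 SE, adjusted p = 0.00078). With the library name as a replicate block the call of Ppard was lost (0.83, adjusted p = 0.052), as it was without Cx3cr1pos HFD hf1 (0.73, adjusted p = 0.074) and under 3 other of 19 alternatives. Of 22 other peroxisomal genes 2 rose and 3 fell: Nudt7 (1.36) and Agps, an enzyme of ether lipid synthesis (0.67), were higher and Nudt19 (-0.51), another CoA hydrolase, and Scp2, a sterol carrier with a thiolase domain (-0.49), were lower on the log2 scale. Without Cx3cr1pos HFD hf3 0 genes of this list fell and 1 rose, without Cx3cr1pos HFD hf1 1 fell and 1 rose, without HFD KC hfd1 2 fell and 1 rose, and with the frac_neg libraries of HFD KC alone 0 fell and 2 rose; Nudt7 passed under 19 of 19 alternatives. Markers of Kupffer cells (5 of 5), hepatocytes (8 of 14) and sinusoidal endothelium (5 of 10) fell in the same comparison, and their part in these differences was not tested.

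In HFD KC against STD KC, where 2.27% of all genes rose and 1.13% fell, 3 of 8 T and NK cell, 1 of 6 B and plasma cell, 1 of 6 dendritic cell and 1 of 4 adipocyte markers rose, and 1 of 14 hepatocyte markers fell.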
